A study of Mus musculus with 16 samples.

Results

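Of the 11622 anchor bins that the 10 kb loop list holds on chromosomes 1 to 19, 172 (1.48%) were used by 3 or more loops. These shared bins, and every loop that uses them, are described here. They were chosen by counting how many rows of the list have a given 10 kb bin as their left or right anchor; 160 bins were used by 3 loops and 12 by 4 loops, the highest number found. The shared bins carried 517 of the 6689 loops on these chromosomes (7.73%), and the whole list, with chromosome X, has 11828 anchor bins and 6798 loops. Below, left and right mean lower and higher coordinates, and a partner is the bin at the other end of a loop.

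The loops come from whole mouse cochlea of C57Bl/6 animals, which the sample labels give as P0 and the description of the study as P0/1. Micro-C digests fixed chromatin with micrococcal nuclease and ligates neighbouring ends, and each read pair stands for a contact in the nucleus. The 4 replicates, which carried no treatment or transgene and of which the study calls the last a technical one, were merged before loops were called, and each loop comes with a false discovery rate (FDR) below 0.1. Because of this merging, the list has no value per replicate and no depth, no spread between animals can be given, and the tissue cannot be checked against marker genes. The intervals beside shares (95%, Wilson) reflect counting error over bins or loops and not variation between animals.

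Many chromatin loops form where cohesin, a ring-shaped complex that reels in chromatin, is halted at DNA bound by the zinc finger protein CTCF. CTCF halts cohesin in one orientation of its motif, so loop anchors commonly hold motifs that point at each other. An anchor from which cohesin reels in DNA to one side can contact many positions there, which appears on a contact map as a stripe, and promoters and enhancers can also meet at such anchors. In the ear, as in other embryonic tissues, genes of transcription factors and signalling molecules often lie in long stretches with few other genes, across which distant enhancers act.

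Because the direction of a CTCF motif can be set against the side on which partners lie, the best matches to a 14-base CTCF consensus, with at most 1 mismatch on either strand, were read from GRCm38. Each line gives the matched 14 bases in capitals within 30 bases, 5′ to 3′ on the strand named. A plus strand match points right and a minus strand match left. The first 8 are from bins used by 4 loops. The last 6 are from bins that hold a protein-coding start site.
Bin left of Osr1, chr12:9052643-9052672, plus strand, outside protein-coding genes: cctgacatCAAGTAGGGGGCACgtgtaaaa
Igfbp3 bin, chr11:7210514-7210543, plus strand, intronic: gcctgctaCCAGCAGGGGGCAGtcacgccc
Bin nearest to Foxa2, chr2:148122322-148122351, plus strand, outside protein-coding genes: cataatttGCAGCAGAGGGCAGcagaagac
Slc6a5 bin, chr7:49953683-49953712, plus strand, intronic: tacttatcCCAGTAGGTGGCACtagaaacc
Col6a6 bin, chr9:105693952-105693981, plus strand, intronic: aggcacccGCAGCAGGGGGCGCcctactcc
Bin right of Kcna4, chr2:107879823-107879852, minus strand, outside protein-coding genes: gaataatgCCACTAGGTGGCAGtagaataa
Bin right of Isl1, chr13:116715005-116715034, minus strand, outside protein-coding genes: tagggtggACAGCAGGTGGCAGcaaaggcc
Smyd3 bin, chr1:179477238-179477267, minus strand, intronic: tggcatttCCACTAGGTGGCAGtagggtca
Osr1 bin, chr12:9570059-9570088, plus strand, outside protein-coding genes: cttcctcgCCAGCAGGGGGAGCgttttctt
Id2 bin, chr12:25092418-25092447, plus strand, outside protein-coding genes: catatttgCCAGAAGGTGGCGCtcggcctc
Tfap2b bin, chr1:19205749-19205778, plus strand, outside protein-coding genes: aaaacctgCCACCAGAGGTCGCcatgctag
Evx2 bin, chr2:74655517-74655546, minus strand, exonic: tcctgctgCCGCTAGGGGGCGCcccggggg
Pdgfra bin, chr5:75156362-75156391, minus strand, intronic: tgcgggagCCACTAGAGGGCGCggcaaccc
Klf4 bin, chr4:55530440-55530469, minus strand, exonic: agcctcagCCGCCAGGTGGCGGgctgatgg
In all 9 bins used by 4 loops that held a match, the match pointed to the side of the partners. The Klf4 match is shown because it points the other way, and the Osr1 bin has partners on both sides.

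Partners lay on 1 side of the shared bin in 158 of 172 cases (91.9%, 86.8 to 95.1), to the right in 80 and to the left in 78. The other 14 bins had partners on both sides. All 12 bins used by 4 loops were one-sided, 7 to the right and 5 to the left. This share was not higher than just under the threshold: of the 1400 bins used by 2 loops, 1283 (91.6%, 90.1 to 93.0) were one-sided, and among all bins used by 2 or more loops the share was 91.7%. The positions of the loops chose the bins, so sidedness, spread and distance are given as descriptions.

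The partners of many shared bins were scattered, but close calls were common: once loops with both ends within 100 kb were merged, 84 shared bins were left of 172. From the nearest to the farthest partner of a one-sided bin, the spread had a median of 380 kb (quartiles 270 and 635, range 100 to 1470). The 12 bins used by 4 loops had a median spread of 445 kb (range 260 to 990), and one-sided bins used by 2 loops 170 kb (quartiles 100 and 300). A spread takes in more gaps the more loops a bin has, so the rule that chose the bins sets part of this order. In bins used by 2 loops the spread is a single gap, which compares with the gaps between neighbouring partners below. In one-sided bins the nearest partner lay at a median of 310 kb and the farthest at 795 kb, so that the farthest was typically 2.32 times as distant as the nearest (range 1.13 to 10). Neighbouring partners were a median of 160 kb apart (quartiles 100 and 260, n = 342). Still, 102 of these gaps (29.8%, 25.2 to 34.9) were 100 kb or less, and 14 were 50 kb or less. In 9 one-sided bins every gap was 100 kb or less, and in 77 every gap was over 100 kb.

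**Figure D1:**
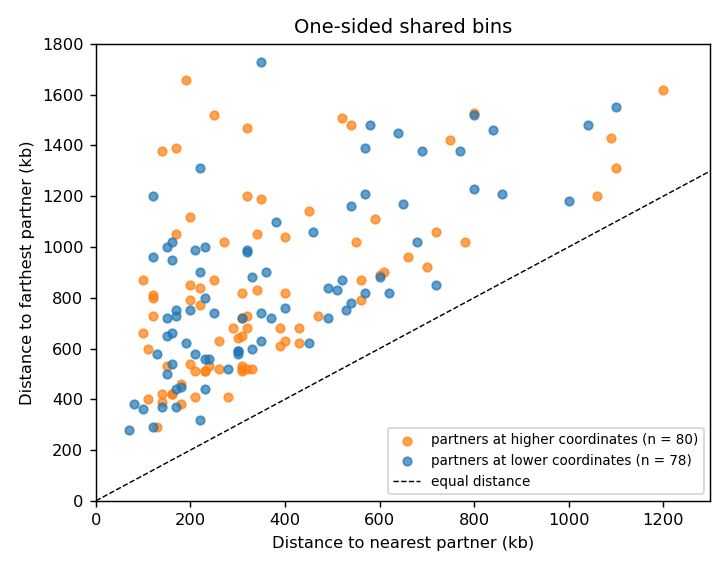
Distance in kb from each one-sided shared bin to its nearest partner (horizontal axis) and to its farthest partner (vertical axis), with 80 bins whose partners lie at higher coordinates and 78 whose partners lie at lower ones; the dashed line marks equal distance. The nearest partner lies at a median of 310 kb and the farthest at 795 kb, and the points of both directions are mixed.

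Loops at shared bins were longer than the rest of the list. Their median distance was 530 kb (quartiles 320 and 820, range 70 to 1730), against 330 kb at bins used by 2 loops and 260 kb (quartiles 150 and 480) over the 6172 loops that use no shared bin. At 1 Mb or more lay 87 of the 517 loops (16.8%, 13.9 to 20.3; 6.49% of all loops), and under 200 kb 47 (9.09%, 6.91 to 11.9; 34.1% of all loops). The FDRs and detection scales of the calls were much the same. Median FDR was 0.0133 at shared bins and 0.0111 elsewhere. An FDR under 0.05 was reached by 407 loops at shared bins (78.7%, 75.0 to 82.0; 79.0% of all loops) and under 0.01 by 236 (45.6%, 41.4 to 50.0; 48.1% of all loops), and 386 (74.7%, 70.7 to 78.2; 71.6% of all loops) were called at the smallest detection scale. No rank among the partners held the best call throughout: in the 146 one-sided bins with 3 loops, the lowest FDR fell on the nearest partner in 43, the middle one in 56 and the farthest in 47. In 82 of 172 bins every loop had an FDR under 0.05, and in 22 no loop reached 0.01.

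The 12 bins used by 4 loops show how different such fans can be. The bin chr12:9050001-9060000, outside genes, had partners 520, 1170, 1380 and 1510 kb to the right with FDRs of 0.0981, 0.00529, 0.00187 and 0.00406. Its nearest partner holds the start site of Osr1, a zinc finger transcription factor of embryonic mesoderm, and the other partners lie beyond that gene. It was the only bin of the 12 to keep 4 loops after calls within 100 kb of each other were merged. The bin chr11:7210001-7220000, at the start site of Igfbp3, a secreted binding protein for insulin-like growth factors, had partners 350, 1030, 1090 and 1190 kb to the right (FDR 0.00975, 0.024, 0.00356 and 0.0235). No protein-coding start site lay between it and any partner, and all 4 partners held a CTCF match that points back. After merging, 2 of its loops were left, since the farther 3 partners are neighbours.

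Genes known from inner ear development lay inside a pair of these fans. The bin chr2:8670001-8680000 is 1160438 bp from the nearest protein-coding start site, that of Celf2, the longest such distance of any shared bin. It looped to the right, over 1200, 1330, 1410 and 1620 kb (FDR 0.00907, 0.00169, 0.0375 and 0.0109). The nearest partner is in the body of Gata3, a zinc finger transcription factor needed for the ear to form, the second is in Taf3, and the third holds the start sites of Atp5c1 and Kin. The bin chr13:116710001-116720000 looped to the left over 1040, 1270, 1430 and 1480 kb (FDR 0.00223, 0.000928, 0.0385 and 0.00111). Only 1 protein-coding start site lay on that path, that of Isl1, a LIM homeodomain factor of sensory and neuronal precursors, and all 4 loops passed over it.

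Other bins with 4 loops reached along gene families or within large genes. The bin chr9:105690001-105700000, in Col6a6, had partners 160, 280, 350 and 420 kb to the right (FDR 0.000807, 0.00437, 0.0241 and 0.0568). The nearest partner overlapped Col6a5 and the third Col6a4, which like Col6a6 encode collagen VI chains. The bin chr1:179470001-179480000, in an intron of the methyltransferase gene Smyd3, looped to the left over 230, 330, 940 and 1000 kb (FDR 0.0059, 0.0801, 0.0143 and 0.0574). Its nearer 2 partners lie in Smyd3 too, and the farther ones are in Kif26b and Efcab2. The bin chr7:49950001-49960000, in the glycine transporter gene Slc6a5, looped to the right over 540, 780, 1380 and 1480 kb (FDR 0.0102, 0.0508, 0.0851 and 0.00337), with the nearer 2 partners in Nell1.

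Regulators of G protein signalling lay in the fan of chr1:144370001-144380000, an intergenic bin whose loops reached 130, 170, 360 and 580 kb to the left (FDR 0.0787, 0.0273, 0.0646 and 0.000184). The partner at 130 kb holds the start site of Rgs1, and the loop of 580 kb passed over Rgs1, Rgs13 and Rgs2. The bin chr10:13560001-13570000, in the tRNA deaminase gene Adat2, looped to the right over 400, 630, 770 and 820 kb (FDR 0.00272, 0.000186, 0.0142 and 0.0177), and its nearest partner holds the start site of the zinc finger factor Hivep2. In the bin chr5:74280001-74290000, in Scfd2, the lowest FDR of the 12 bins was found, 4.82e-05 for the partner 430 kb to the left. Its other partners lay at 330, 520 and 600 kb (FDR 0.0255, 0.00468 and 0.0306). These 3 bins held no CTCF match.

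The remaining bins with 4 loops lay outside genes. The bin chr2:107870001-107880000 looped to the left over 800, 890, 1450 and 1520 kb (FDR 0.0943, 0.000269, 0.097 and 0.00145), past the potassium channel gene Kcna4. Its partners form 2 close pairs, and merging left 2 loops. The bin chr2:148120001-148130000, nearest to the forkhead gene Foxa2, looped to the right over 260, 450, 520 and 630 kb (FDR 0.0576, 0.0019, 0.00448 and 0.0983). Thbd and Cd93, which encode endothelial surface proteins, lay between it and the second partner. Of the 12 bins, 5 had all 4 loops at an FDR under 0.05, those in Scfd2, Adat2 and Igfbp3 and the bins beside Gata3 and Isl1.

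**Figure D2:**
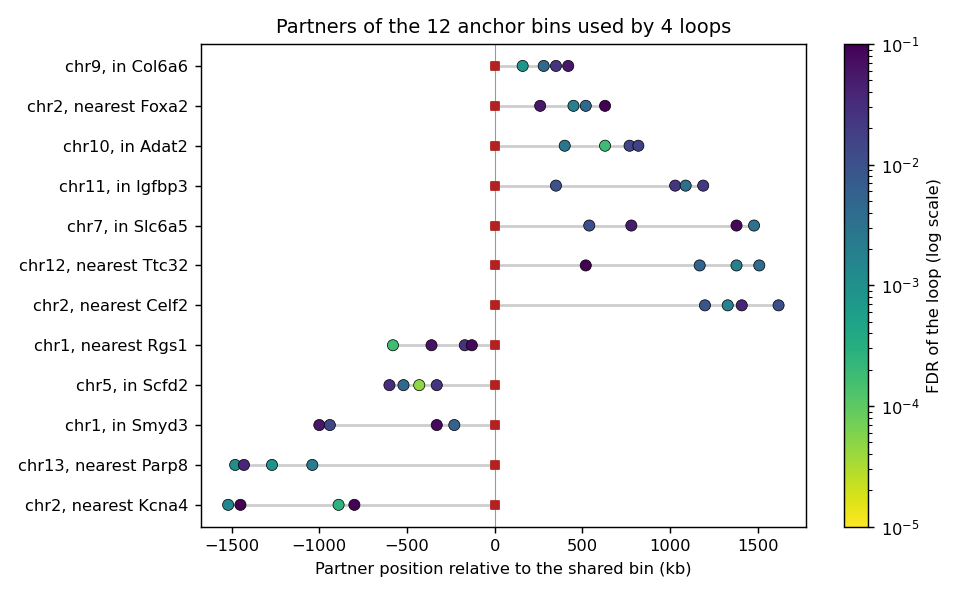
Partner positions in kb relative to each of the 12 bins used by 4 loops (red square at 0), with the bin named by its chromosome and by the gene it overlaps or the nearest start site, and the point colour giving the loop's FDR on a log scale (darker is higher). Each bin has all partners on 1 side, and the span from nearest to farthest partner runs from 260 kb to 990 kb.

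Protein-coding start sites were no more frequent at shared bins than at other anchors. A start site (the 5′ end of a gene in GENCODE vM21) lay in 18 of 172 shared bins (10.5%, 6.72 to 15.9), against 12.0% of all anchor bins and 7.76% of all 10 kb bins. Of the other shared bins, 49 overlapped a gene body with an exon, 24 an intron only and 81 no protein-coding gene. Gene bodies were overlapped by 91 (52.9%, 45.5 to 60.2), against 59.9% of anchor bins and 47.0% of all bins. With genes of every annotated type, 34 shared bins (19.8%, 14.5 to 26.4) held a start site, against 22.5% of anchor bins and 17.4% of all bins. For the 154 bins without a protein-coding start site, the nearest one lay at a median of 55101.5 bp, and 51 bins were 100 kb or more from any. Neither value was taken over other anchor bins, so they do not show whether shared bins are farther from genes.

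The 18 bins held the start sites of 21 genes. At the HoxD cluster, which patterns the body axis and limbs and is flanked by a regulatory landscape on each side, a pair of shared bins looked in opposite directions. The bin chr2:74650001-74660000, with the start site of the homeobox gene Evx2 (ENSMUSG00000001815.15), looped 350, 590 and 630 kb to the left (FDR 0.000635, 0.000615 and 0.014). The bin chr2:74710001-74720000, with the start sites of Hoxd3 and Hoxd4, looped 250, 420 and 870 kb to the right, with FDRs of 0.00131, 5.66e-05 and 5.66e-05. No loop of either bin reached the other's side. The Evx2 bin held a CTCF match that points left, towards its partners, and the Hoxd3 and Hoxd4 bin held none.

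Further transcription factor genes at shared bins had no other protein-coding start site on the way to their partners. Tfap2b, an AP-2 factor of neural crest, looped 1100, 1240 and 1310 kb to the right (FDR 0.0473, 0.0536 and 0.0323), each time into Pkhd1. Klf4 looped 120, 590 and 810 kb to the right (FDR 0.0201, 0.0451 and 0.0333), and Id2, an inhibitor of basic helix-loop-helix factors, 320, 980 and 1200 kb to the right (FDR 0.0783, 0.00158 and 0.0807). The bin with the divergent start sites of Sox6 and 1110004F10Rik looped 570, 660 and 820 kb to the left (FDR 0.0165, 0.0152 and 0.00273). The body of Sox6, a SoxD factor of cartilage and neurons, fills the side on which its partners lie, but they were beyond its 3′ end.

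Signalling genes formed another group. The bin of Inhba, which encodes the activin A subunit, looped 750, 1010 and 1420 kb to the right (FDR 0.00175, 0.0344 and 0.00848). That of Rspo3, an enhancer of Wnt signalling, looped 270, 880 and 1020 kb to the right (FDR 0.00524, 0.00131 and 0.0478), away from its own gene body. The bin of Pdgfra, a receptor for platelet-derived growth factor, looped 570, 720 and 1390 kb to the left (FDR 0.0582, 0.00413 and 0.0294), also away from the gene, and held 4 CTCF matches, the most of any shared bin. Its loop of 1390 kb passed over 7 start sites and ended in a bin that is also a partner of the Scfd2 bin with 4 loops.

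Osr1 and Mpped2 were the start sites at bins with partners on both sides. The Osr1 bin, chr12:9570001-9580000, looped 410 and 520 kb to the left (FDR 0.0549 and 0.0981) and 650 kb to the right (FDR 0.000105). The CTCF match shown above lies 42 bp from the start site. Mpped2, which encodes a metallophosphoesterase, had partners 260 and 330 kb to the left and 250 kb to the right (FDR 0.00484, 0.0632 and 0.0263). Partners of some start site bins were start sites themselves. Clu, which encodes an extracellular chaperone, looped 300 kb to the left to the scavenger receptor gene Scara5 (FDR 0.0248), besides loops of 100 kb (FDR 0.000626) and 360 kb (FDR 0.0565). The bin of Polr2k, an RNA polymerase subunit, and Spag1 looped to Ankrd46 320 kb to the right (FDR 0.000265), with further loops of 410 and 520 kb (FDR 0.00433 and 0.0382). That of 1500015O10Rik looped to Nck2, a signalling adaptor gene, 290 kb to the left (FDR 0.00387), with further loops of 180 and 450 kb (FDR 0.0893 and 0.00183). Fabp12, Camk2n1 and Gm10309 made up the rest, with partners at 300 to 590 kb, 110 to 400 kb and 310 to 530 kb.

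**Figure D3:**
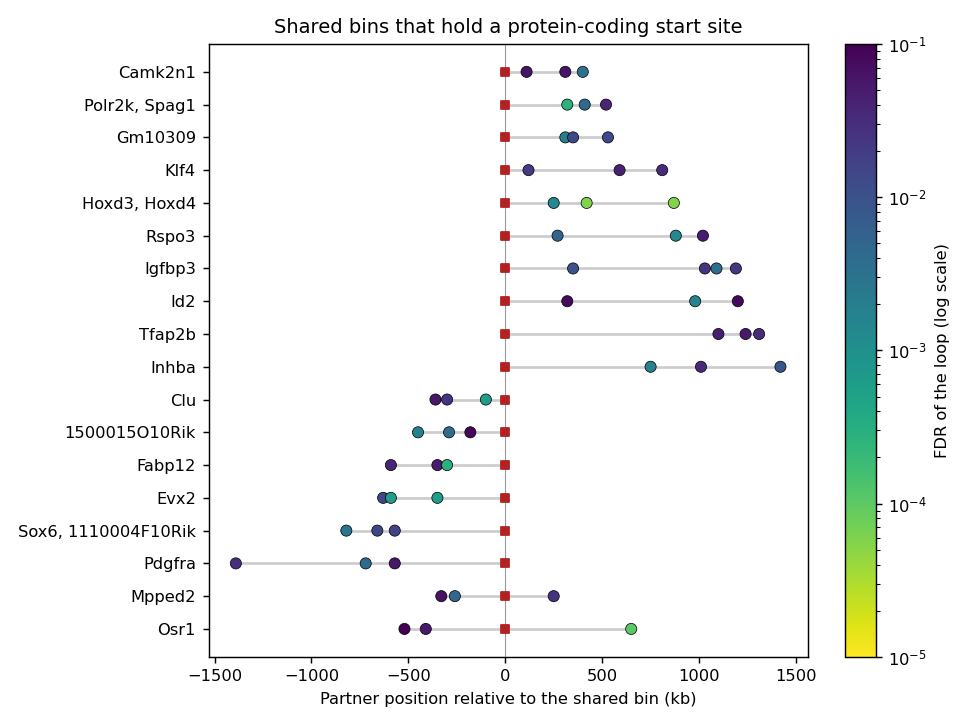
Partner positions in kb relative to the 18 shared bins that hold a protein-coding start site (red square at 0, row named by the gene or genes), with point colour giving the loop's FDR on a log scale (darker is higher). In 10 bins all partners lie to the right, in 6 to the left and in 2, Mpped2 and Osr1, on both sides.

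Of the 516 distinct partner bins, 41 (7.95%, 5.91 to 10.6) held a protein-coding start site, a share close to the 7.76% of all 10 kb bins and under the 12.0% of anchor bins. Jag1, Mycn, Wif1 and Osr1 are the 4 listed genes at partners, and the lists were drawn up with earlier results of these loops known. The other genes described here were chosen after their values were seen. Jag1, a Notch ligand of the prosensory domain, was reached from chr2:137730001-137740000 over 620 kb to the left (FDR 0.000556), and the other loops of that bin, of 740 kb (FDR 0.07) and 820 kb (FDR 0.00524), passed over it. Neurog2, a proneural factor, was reached from an intron of Alpk1 over 130 kb (FDR 0.000109). Mycn, a growth-promoting transcription factor, was reached from chr12:12420001-12430000 over 520 kb (FDR 0.000124). The start site of Wif1, a secreted Wnt inhibitor, lay 220 kb from chr10:121250001-121260000 (FDR 0.00178), whose partners had the smallest spread of all, 100 kb. Weaker calls joined shared bins to Pou4f2, a POU domain factor (210 kb, FDR 0.0733), and to Dner, a transmembrane protein with Notch ligand-like repeats (960 kb, FDR 0.0307). The lowest FDR of any loop at a shared bin, 3.48e-06, joined chr2:58660001-58670000 to the start site of the predicted gene Gm17409 190 kb to the left.

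Few start sites lay between a shared bin and its partners. Up to the farthest partner the median was 2 (quartiles 1 and 4, range 0 to 40), or 2.61 per Mb, whereas chromosomes 1 to 19 have 8.69 per Mb. In 17 bins there was none. Summed over loops, those at shared bins passed over 3.11 start sites per Mb and the other loops over 5.02, but the loops differ in length. At 300 to under 600 kb the values were 4.45 (n = 181) and 5.21 per Mb (n = 1694), and at 600 to under 1000 kb 2.92 (n = 139) and 3.15 (n = 718). The share of loops that passed over no start site was 23.4% (20.0 to 27.2) at shared bins and 22.7% elsewhere. The counts were uneven. The highest number, 40, belonged to chr16:88370001-88380000, whose loop of 1390 kb to the right (FDR 0.0276) spans a cluster of keratin-associated protein genes, and whose nearer loops of 170 and 480 kb passed over 1 and 15 start sites. Next came chr3:116030001-116040000, whose loop of 680 kb (FDR 0.0581) passed over 10, among them Vcam1, an adhesion molecule of endothelium, and chr2:126520001-126530000, whose loop of 870 kb to the left (FDR 0.0273) also passed over 10, Fgf7 among them. The bins in Plgrkt and BC035044 had 9 each, and 8 each were found for the bins in Fam163a and Ccnyl1, the bin left of Gata3, chr2:129250001-129260000 and chr17:87240001-87250000. At the other end, chr9:41950001-41960000 had 3 loops to the left, of 370, 480 and 720 kb, with none inside and with the same FDR, 0.000183.

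Some fans stayed within 1 gene. For 37 loop ends at 23 shared bins, the bin and the partner overlapped the same protein-coding gene, a count not taken over all loops. In 4 genes all 3 loops of a bin did so: Rabgap1l, Etl4, Pde4d and Trpm3. In Rabgap1l the loops spanned 150, 310 and 500 kb to the left (FDR 0.0135, 0.000228 and 0.032), and in Etl4 230, 400 and 510 kb to the right (FDR 0.0177, 0.0146 and 0.0491). In Pde4d, a cAMP phosphodiesterase gene, the loops of chr13:109230001-109240000 spanned 310, 370 and 520 kb to the right (FDR 0.00519, 0.00519 and 0.00316), and each partner held a match that points back. In Trpm3, a cation channel gene, they spanned 200, 350 and 540 kb (FDR 0.0296, 0.0447 and 0.0562). Sema5a, a semaphorin that guides axons, held 2 such loops, of 180 kb (FDR 0.00605) and 310 kb (FDR 0.0805).

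CTCF consensus matches were more frequent in bins used by more loops. A match lay in 107 of 172 shared bins (62.2%, 54.8 to 69.1), against 48.5% of all anchor bins and 21.6% of all 10 kb bins. Bins used by 1 loop held one in 47.0% (46.1 to 48.0) and bins used by 2 loops in 57.6% (55.0 to 60.1), so that the interval of the shared bins overlaps that of the bins just under the threshold. Among bins used by 4 loops, 9 of 12 held a match (75.0%, 46.8 to 91.1). Of the 107 bins, 38 had a match without mismatch. By loop distance the order of the shares was not fixed: at 160 to 320 kb a match lay in 47.0% of bins used by 1 loop, 62.4% used by 2 and 56.3% (39.3 to 71.8, n = 32) used by 3 or more, at 320 to 820 kb in 43.6%, 53.8% and 64.3% (54.4 to 73.1, n = 98), and at 820 to 2000 kb in 44.0%, 52.9% and 61.0% (45.7 to 74.3, n = 41). At least 2 matches lay in 29 shared bins (16.9%, 12.0 to 23.2), against 12.1% of anchor bins and 3.29% of all bins. Median GC content was 43.8% in shared bins, 44.2% in anchor bins and 41.4% in all 10 kb bins, and its part in these shares was not tested. A match is a description of the sequence and not evidence of binding.

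Where a one-sided shared bin had a match with a single orientation, it pointed to the partners in 88 of 95 cases (92.6%, 85.6 to 96.4), against 81.1% of all such anchor bins. The share was 80.0% (78.8 to 81.2) of 4340 bins used by 1 loop and 86.1% (83.3 to 88.5) of 689 used by 2 loops. Both sides showed it: 43 of 45 bins that looped to the right and 45 of 50 that looped to the left. Since loops at shared bins are longer, the share was also taken within ranges of loop distance (the median over the loops of a bin), chosen after the values were seen. At 320 to 820 kb the share was 78.2% (75.9 to 80.5) for 1 loop, 83.4% (78.8 to 87.2) for 2 loops and 89.5% (78.9 to 95.1; 51 of 57) for 3 or more. At 820 to 2000 kb it was 84.8% (80.8 to 88.0), 93.4% (85.5 to 97.2) and 95.7% (79.0 to 99.2; 22 of 23). At 160 to 320 kb it was 79.0%, 86.7% and 100% (14 of 14), and under 160 kb only 1 shared bin had an orientation. The 7 exceptions included Klf4 and chr4:106220001-106230000, whose 3 loops of 1000 to 1180 kb to the left had FDRs of 0.055, 0.00157 and 0.068.

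**Figure D4:**
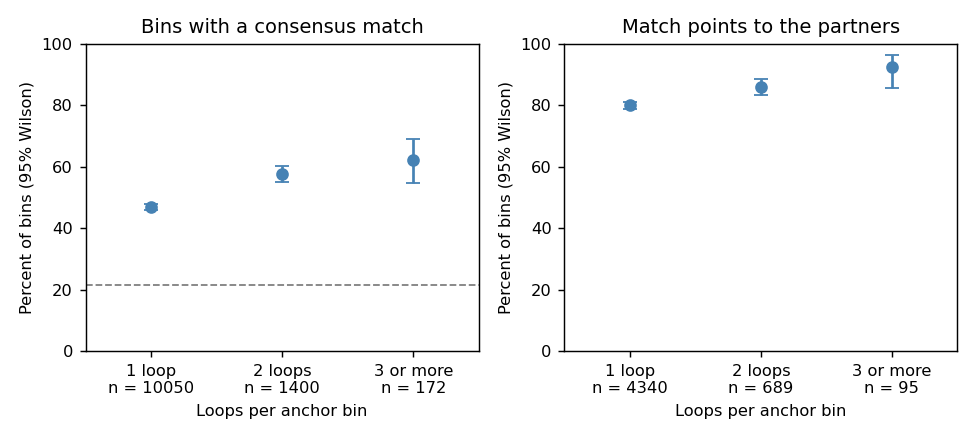
Percent of anchor bins with a CTCF consensus match (left; dashed line, the 21.6% of all 10 kb bins) and percent of one-sided bins with 1 orientation whose match points to the partners (right), by the number of loops that use the bin; points are shares, bars 95% Wilson intervals, and n the bins. The left shares are 47.0%, 57.6% and 62.2%, and the right ones 80.0%, 86.1% and 92.6%.

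The partners themselves were less marked. A match lay at the partner of 245 of 528 loop ends (46.4%), and where it had 1 orientation it pointed back at the shared bin in 179 of 230 (77.8%, 72.0 to 82.7). Counted per one-sided partner bin, 167 of 210 (79.5%, 73.6 to 84.4) pointed to their own partners, against 81.1% of all such anchor bins. With an orientation at both ends, 90 of 127 loops (70.9%, 62.4 to 78.1) had matches that point at each other, against 68.4% (65.8 to 70.8) of the loops that use no shared bin and 68.6% of all loops. Matches that point apart were found in 3 of the 127 (2.36%, 0.807 to 6.72), against 3.10% (2.30 to 4.16) of the loops that use no shared bin. A match at the bin and at every partner was found for 13 shared bins, and 9 had none at either end of any loop. Of the 14 bins with partners on both sides, 4 held a match, against 48.5% of all anchor bins. None of the 14 held matches on both strands, and of the 158 one-sided bins only 11 did. With so few bins, no difference can be read from this. In 2 of the 4 the match pointed to the side with more partners.

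The 14 bins with partners on both sides reached a median of 595 kb to their farthest partner (range 200 to 1550), against 795 kb for one-sided bins. Their spread, which adds the distances on both sides, had a median of 870 kb (range 390 to 2200). The widest spread of all was that of chr4:13780001-13790000 in the corepressor gene Runx1t1. It had partners 1250 and 1550 kb to the left (FDR 0.0254 and 0.0022) and 650 kb to the right (FDR 0.0276), and held no match. The bin chr6:17360001-17370000 looped 260 and 340 kb to the left (FDR 0.000346 and 0.00632), past the caveolin genes Cav1 and Cav2, and 220 kb to the right (FDR 0.000357), past Met, the hepatocyte growth factor receptor. Among these bins were also chr1:193690001-193700000, with partners 930 and 1120 kb to the right in the semaphorin receptor gene Plxna2 (FDR 0.0255 and 0.0183) and 250 kb to the left (FDR 0.0118). The bin in Ccnyl1 looped 1040 kb to the left (FDR 0.0694), and 210 and 290 kb to the right (FDR 0.00471 and 0.00221), past the Wnt receptor gene Fzd5. In the fucosyltransferase gene Fut8, partners lay 230 kb to the left and 320 and 540 kb to the right (FDR 0.00685, 0.00579 and 0.0224). In Ssbp2, the partners at 160 and 220 kb to the right (FDR 0.00202 and 0.0409) were in the gene and the one at 530 kb to the left (FDR 0.0497) in Atg10.

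Among one-sided bins, the widest spread, 1470 kb, belonged to chr8:114770001-114780000 in the oxidoreductase gene Wwox. Its loops of 190, 940 and 1660 kb to the right (FDR 0.0552, 0.0393 and 0.0898) passed, from the second on, over Maf, a bZIP transcription factor. Cfap54 (350, 1480 and 1730 kb to the left, FDR 0.0527, 0.0261 and 0.00279) followed, with a spread of 1380 kb. Then came chr1:167940001-167950000, outside genes, with 1270 kb, and the bin in Opcml, with 1240 kb. The Opcml bin looped 140, 1190 and 1380 kb to the right (FDR 0.00931, 0.00314 and 0.000406). Its farther loops ended in Ntm, which encodes a related cell adhesion molecule. The spread was 200 kb or less in 16 one-sided bins. One of them, chr17:85630001-85640000 beside Six3, a homeobox gene of forebrain and eye, looped 450, 520 and 620 kb to the left (FDR 0.00151, 0.000229 and 0.0277), past that gene. The bin chr5:97120001-97130000 looped 1060, 1140 and 1200 kb to the right (FDR 0.000263, 0.0538 and 0.000534) to Prdm8, Fgf5 and the start site of Cfap299. Narrow fans of this kind also lay at Plekha5, Mcph1, Wdr35 and chr2:59530001-59540000, with spreads of 130 to 170 kb.

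Of the 516 partner bins, 381 were used by 1 loop, 116 by 2 loops and 19 (3.68%) were shared bins themselves, against 1.48% of all anchor bins. Use by 2 or more loops was found for 135 partner bins (26.2%) and for 13.5% of all anchor bins, though a bin used by more loops also counts as a partner more often. Loops that joined a pair of shared bins numbered 11. Linking shared bins through such loops or a common partner gave 158 groups, of which 145 had 1 shared bin, 12 had 2 and 1 had 3. That group, chr12:9050001-10570000, is the Osr1 region. Its shared bins at 9050001, 9570001 and 10220001 were each joined to the others, by loops of 520 kb (FDR 0.0981), 650 kb (FDR 0.000105) and 1170 kb (FDR 0.00529), and its 7 loops enclosed 3 genes, Osr1, Nt5c1b and Rdh14. The bin at 10220001 looped only to the left and that at 9050001 only to the right, with Osr1 between them. Next were chr5:73680001-75160000, with the Scfd2 and Pdgfra bins and 7 loops, and chr2:136480001-137950000, with 2 shared bins right of Jag1 and 6 loops, a number shared by groups at Bmp2 (chr2:133100001-134490000) and Fut8 (chr12:77000001-77800000). In all, 17 shared bins had 2 partners joined by a loop of their own. A triangle with several shared bins is counted from each of them, and the count was not taken over other anchor bins. One such triangle joined the Wwox bin to chr8:115710001-115720000 (940 kb, FDR 0.0393), and both of them to a bin beyond Maf.

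Genes known from the cochlea, like all genes, lay more often inside these fans than at their ends, but the inside is far larger. It covers 131.84 Mb (5.51% of the 10 kb bins), against 172 shared and 516 partner bins of 10 kb each. Of 317 annotated genes in 6 lists (hereditary deafness, otic and prosensory regulators, hair cells, supporting cells and Notch, spiral ganglion, and the Wnt, Fgf, Bmp and Hedgehog pathways), 3 had the start site in a shared bin (all protein-coding genes: 0.101%), 4 in a partner bin (0.211%) and 17 between a shared bin and a partner (2.28%), which is 0.946%, 1.26% and 5.36% of the lists. The 4 at partner bins are also among the 17. The bodies of 4 (1.26%) overlapped a shared bin, against 0.457% of all genes. The lists were drawn up with earlier results of these loops known. At any anchor of the loop list lay the start sites of 24.3% of listed genes and 7.35% of all genes, so the lists and all genes differ at anchors of every kind.

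The list of otic and prosensory regulators gave Osr1 at shared and partner bins and Mycn at a partner, of 47 genes. Gata3, Otx2 and Foxp1 lay inside fans besides these. Osr1, described above as a factor of embryonic mesoderm, stands on a list drawn up with earlier results of these loops known. Its place at a shared bin is therefore no evidence about otic regulators. Otx2, a homeobox factor, was passed by loops of 630 and 730 kb from chr14:48370001-48380000 (FDR 0.0143 and 0.000681). The start site of Foxp1, a forkhead factor, was passed by loops of 580, 1080 and 1480 kb from chr6:99600001-99610000 (FDR 0.0651, 0.00336 and 0.00285). The loop of 580 kb ended in the body of Foxp1. In the signalling list of 84 genes, Inhba and Rspo3 were at shared bins and Wif1 at a partner, and Bmp2, Fgf7, Fzd5 and Wnt16 were inside. Bmp2, a bone morphogenetic protein, was passed by loops from 2 shared bins, of 470 and 900 kb (FDR 0.000572 and 0.0347) and of 940 and 1380 kb (FDR 0.00378 and 0.0193), all to the left. The start site of Notch2, a Notch receptor, was passed by all loops of chr3:97920001-97930000, of 180, 290 and 380 kb (FDR 0.023, 0.000181 and 0.0434). The loop of 180 kb ended in the body of Notch2. Jag1 was the only gene of the 32 in its list at a partner. Of 77 deafness genes none was at a shared or partner bin, and Met and Slc26a4 were inside. Slc26a4, the anion exchanger pendrin of the endolymph-lining epithelium, was passed by all loops of chr12:31500001-31510000, of 140, 210 and 420 kb (FDR 0.0739, 0.0792 and 0.0028). Of 30 hair cell genes, Xirp2 lay in 1 loop of 1380 kb (FDR 0.00343), and of 47 spiral ganglion genes, Isl1 and Plxna2 lay inside, while Sema5a overlapped a shared bin with its body.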

How the data were processed

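Micro-C was performed by the authors on whole cochlea in 4 replicates. Per their methods, reads were aligned to mm10 with BWA-MEM, duplicates were removed with pairtools, and loops were called with Mustache in 10 kb bins on the merged replicates. Each loop has an FDR (a q-value) and a score, its detection scale, both deposited by the authors as their loop caller gave them. Read depth is not in the list. The 12 ATAC-seq and CUT&RUN samples were not used here.

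Loop distance was taken from bin start to bin start. Chromosome X was left out. Genes came from GENCODE vM21 on GRCm38, the build of the list; protein-coding genes give the start sites unless stated. "Between" leaves out both anchor bins. The CTCF consensus was written from general knowledge, of 14 bases, and was searched on both strands of the RefSeq GRCm38.p6 sequence, in bins with at most 10% unknown bases. A bin took the orientation of its best match, and bins whose best matches lay on opposite strands were given none. Distances to a start site are from the match's middle.

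Python 3.11.15, numpy 2.4.6, pandas 2.3.3, scipy 1.17.1 and matplotlib 3.10.9 were used, and the counting steps were tested on simulated data. No hypothesis test was run, because loop positions chose the bins and the list has no replicates.

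Named are all bins used by 4 loops or holding a start site, the 8 widest, 8 narrowest, 8 best called two-sided bins, the 8 bins with the most and the 8 with the fewest start sites to the farthest partner, listed genes at shared or partner bins, and the 3 largest linked groups. Other genes were chosen after their values were seen. Some members that these rules name are not reported here. Alternatives were stricter FDR thresholds, the smallest detection scale, merged calls, pooled touching bins, 4 loops as the minimum, chromosome X, and other start site and motif rules. The members and the lists were chosen with earlier results of these data known.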

Additional observations from a re-analysis of the deposited data

How the results depend on the processing

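No paired analysis was possible because replicates were merged before calling, so that the list gives 1 value per loop. For the same reason no replicate could be left out. The number of shared bins changed by over 1.5 times under every setting of the calls and bins but chromosome X: 172 became 84 at an FDR under 0.05, 16 under 0.01, 81 at the smallest detection scale, 84 with calls within 100 kb merged, 12 with 4 loops as the minimum and 673 with touching bins pooled, which makes anchors wider than 10 kb. The one-sided share was 100% with 4 loops and 74.3% with pooling. Merging gave a median spread of 620 kb and a gap of 225 kb, and 4 loops a gap of 115 kb. Start sites lay in 6.25% of shared bins at an FDR under 0.01, 21.1% with pooling, 19.8% with every gene type and 27.9% within 10 kb, and in 4.17%, 11.9%, 16.3% and 20.7% of partner bins. The median number between bin and farthest partner was 1 at an FDR under 0.01 and 10.5 with every gene type. The partner was itself used by at least 2 loops for 27.8% of loop ends, and for 21.8% at an FDR under 0.05, 12.5% under 0.01, 22.7% at the smallest scale, 33.2% merged, 18.8% with 4 loops and 51.4% pooled. A CTCF match lay in 75.0% with 4 loops, 78.0% pooled and 22.1% without mismatch. The match pointed to the partners in 100% at an FDR under 0.01 (n = 9), 100% with 4 loops (n = 9) and 97.3% without mismatch (n = 37). Adding chromosome X gave 174 bins. With this count, 46 of 79 values stayed within the interval of the value reported or, for the count, near it. Taking one-sided bins alone, an alternative chosen after the data were seen, gave a median spread of 380 kb. The cause of these differences was not tested beyond the fewer or wider bins that each setting leaves.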
